A study of Mus musculus with 91 samples.

Results

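Foxl2, Runx1, Gng13, Egfl6, Bhlhe41 and Lrrn1 were followed across sorted cells of the fetal mouse gonad as markers of the XX somatic cells. They are 6 of the 19938 genes with a transcript cluster (the probes of an array that report a gene together) annotated to 1 gene only, each had 1 such cluster, and all 6 passed the filter on low values (log2 over 6 in at least 2 of the 3 arrays of a group). They were chosen with XX and XY values of these arrays in view. The XX minus XY difference in supporting cells and in stromal or interstitial cells is therefore given as a description, and tests were kept to supporting against stromal cells within a sex, to stage, and to the other reporters. These tests still use arrays that the choice had in view, so counts of members called in them are no independent support for the choice.

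Supporting cells, the precursors of ovarian granulosa cells and testicular Sertoli cells, came from embryos of a CD-1 by C57BL/6J cross. XX supporting cells carried Sry-EGFP, a transgene driven by the Sry promoter without the SRY reading frame, at 3 stages (E11.5, E12.5, E13.5). XY supporting cells carried Sry-EGFP at E11.5 and Sox9-ECFP at E12.5 and E13.5, so in XY cells the reporter changed with the stage. XX stromal and XY interstitial cells were sorted from a CD-1 by mixed cross, at each stage with a reporter that differs from those of the supporting cells. The GEO labels name these cells vascular associated mesenchymal cells, and the XY samples at E12.5 and E13.5 an interstitial subset with fetal Leydig cells. Germ cells (Oct4-EGFP, CD-1 by C57BL/6J, sorted with the mesonephros attached), endothelial cells (Flk1-mCherry, CD-1, with part of the mesonephros at E11.5) and αSma-EYFP cells (FVB in the labels) were sorted from both sexes at the same stages. Each of the 30 groups held 3 arrays of RNA from separately sorted cells, pooled over embryos of 1 or more litters. Lineage, reporter and cross cannot be told apart in any comparison of supporting with stromal cells, and in sorted bulk RNA fewer cells of a type and less RNA per cell cannot be told apart either.

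Values are log2 RMA intensities, and a cluster's level can be set against its own level in other arrays but not against another gene's. Array medians lay between 6.555 and 6.811. The least similar array was XY endothelial replicate 2 at E11.5, with a mean correlation of 0.965 with the other arrays of its group. The mean log2 level of 15 endothelial genes was 9.58 to 10.08 in endothelial groups and 6.29 to 6.96 in supporting, stromal and interstitial groups, and the mean of 13 germ cell genes was 9.71 to 10.03 in germ cell groups and 5.78 to 6.33 in supporting, stromal and interstitial groups. The mean of the measured Sertoli cell genes was 7.46, 7.25 and 7.35 in XX supporting cells, in order of stage, and 9.22, 9.83 and 9.71 in XY supporting cells. The mean of 16 interstitial and mesenchymal genes was 7.01 to 7.28 in supporting groups and 8.28 to 9.46 in stromal and interstitial groups. The mean of the measured fetal Leydig cell genes was 6.48 in the XX endothelial sort at E13.5 and 9.81 in the XY endothelial sort.

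In the fetal ovary the supporting cells become pre-granulosa cells, while SRY and SOX9 turn the same precursors into Sertoli cells in the testis. FOXL2, a forkhead factor, and WNT4 and RSPO1 signalling belong to the ovarian programme. RUNX1 is a core-binding factor that binds DNA with CBFB and works beside FOXL2 in granulosa cells. BHLHE41 is a helix-loop-helix repressor that binds E boxes and is best known from the circadian clock. GNG13 is a gamma subunit of heterotrimeric G proteins known from taste and olfactory cells, EGFL6 is a secreted matrix protein with EGF-like repeats that binds integrins, and LRRN1 is a transmembrane protein with leucine-rich repeats known from the nervous system.

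Promoter windows of 250 bases before to 50 after a start site were found for all 6 genes in RefSeq (GRCm38.p6), 8 windows in all. Stretches of 3 are shown. Foxl2 was taken because the window lies between Foxl2 and the noncoding gene Foxl2os, which starts 297 bases away on the other strand. Runx1 and Bhlhe41 were taken because they are the 2 members with an E box in a window. Runx1 has 2 windows, and the one not shown (chr16:92697280-92697579) held none of the motifs searched. Capitals mark matches to the motifs searched, on either strand. The stretches before the start run from base -250 to base -1, and the short Runx1 stretch from base 21 to base 50 after the start of the same window.
Foxl2, chr9:98955357-98955606, plus strand: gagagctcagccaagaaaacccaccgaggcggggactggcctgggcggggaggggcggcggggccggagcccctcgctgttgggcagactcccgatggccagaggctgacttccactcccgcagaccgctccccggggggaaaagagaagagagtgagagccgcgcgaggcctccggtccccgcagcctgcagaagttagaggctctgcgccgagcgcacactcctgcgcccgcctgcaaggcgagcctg
Runx1 before the start, chr16:92826075-92826324, minus strand: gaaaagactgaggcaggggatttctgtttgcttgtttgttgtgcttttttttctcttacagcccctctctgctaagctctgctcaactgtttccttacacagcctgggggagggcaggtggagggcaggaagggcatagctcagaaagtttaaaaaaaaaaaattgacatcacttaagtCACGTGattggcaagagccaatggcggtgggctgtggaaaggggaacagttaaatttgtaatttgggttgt
Runx1 after the start, chr16:92826025-92826054, minus strand: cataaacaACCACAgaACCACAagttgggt
Bhlhe41, chr6:145865421-145865670, minus strand: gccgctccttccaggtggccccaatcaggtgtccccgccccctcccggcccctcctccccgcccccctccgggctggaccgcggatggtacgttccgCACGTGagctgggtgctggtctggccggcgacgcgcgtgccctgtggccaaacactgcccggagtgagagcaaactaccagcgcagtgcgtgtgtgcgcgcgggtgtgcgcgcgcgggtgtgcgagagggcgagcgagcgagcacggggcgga

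The E box CACGTG, the class of site that BHLHE41 binds, stood at base -71 of this Runx1 window and at base -153 of the Bhlhe41 window, and 7.15% of all 32851 RefSeq promoter windows hold it. The RUNX motif TGTGGT stood 2 times in this same Runx1 window, at bases 29 and 37 after the start and on the strand opposite to the gene, and 16.8% of all windows hold it. The forkhead motif GTAAACA (3.65% of all windows) and the NR5A1 half-site AAGGTCA (4.72%) were in none of the members' windows. The motifs do not overlap each other in these windows. These matches describe the sequence, and binding was not measured.

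Runx1 was high in the supporting cells of both sexes at E11.5, remained at that level in XX supporting cells, and fell in XY supporting and XY interstitial cells by E12.5. It read 9.78, 9.55 and 9.73 in XX supporting cells at E11.5, against 9.0, 9.04 and 9.5 in XY supporting cells. At E13.5 it read 9.62, 9.40 and 9.66 in XX supporting cells, against 7.08, 7.05 and 7.05 in XY supporting cells. The XX and XY arrays did not overlap at any of the 3 stages, and the XX minus XY difference was 0.51 at E11.5, 1.92 at E12.5 and 2.5 at E13.5 (log2, n = 3 each, not tested). In XY supporting cells, where the reporter changed too, Runx1 fell by 1.59 at E12.5 relative to E11.5 (95% CI of the log2 difference -1.93 to -1.25, limma adjusted p = 8.6e-11), while in XX supporting cells, with 1 reporter, the same difference was -0.18 (-0.52 to 0.16, adjusted p = 0.67). In XY interstitial cells it fell by 1.03 over the same interval, to a mean of 6.78 at E12.5 against 7.81 at E11.5 (adjusted p = 1.6e-05).

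Bhlhe41 had a like course with a larger spread. XX supporting cells read 10.3, 10.67 and 10.51 at E11.5, 10.47, 10.33 and 10.68 at E12.5 and 10.24, 10.47 and 10.41 at E13.5. XY supporting cells read 9.24, 9.89 and 10.10 at E11.5, 8.99, 9.11 and 9.10 at E12.5 and 8.22, 8.23 and 8.28 at E13.5. The XX arrays were above the XY arrays at each stage, by 0.75, 1.43 and 2.13 on the log2 scale in order of stage (not tested). The differences between neighbouring stages in XY supporting cells, -0.68 for the earlier pair and -0.82 for the later, did not pass the test across all clusters (adjusted p = 0.18 and 0.45), and neither did those in XY interstitial cells (-1.05 and -1.15, adjusted p = 0.10 and 0.11). Bhlhe41 averaged 6.03 ± 0.56 in XY interstitial cells at E13.5 (SD, n = 3), and the germ cell means lay between 5.76 and 6.34.

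**Figure D1:**
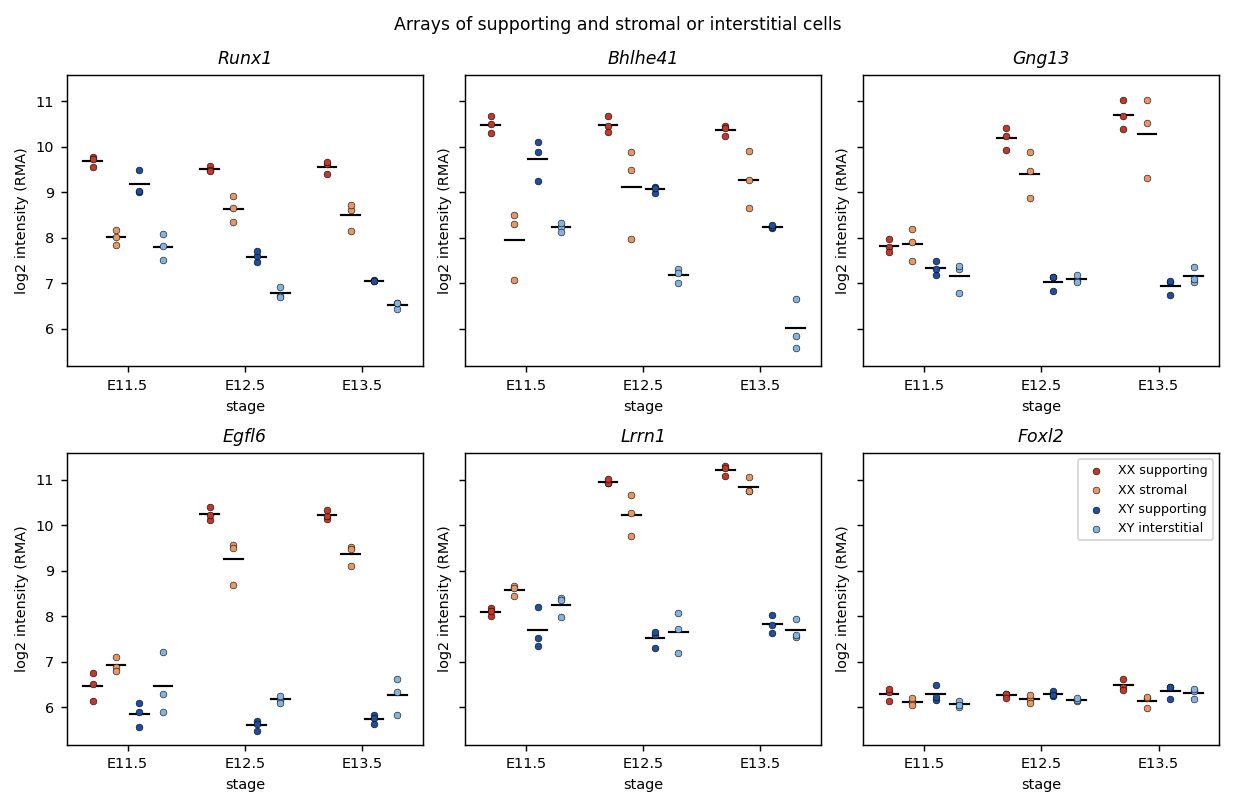
Log2 RMA intensity (y axis) of each gene in every array of XX supporting, XX stromal, XY supporting and XY interstitial cells at 3 stages (x axis), with points for arrays and bars for group means (n = 3). Runx1 and Bhlhe41 start high in supporting cells of both sexes, Gng13, Egfl6 and Lrrn1 are high in XX cells from E12.5 on, and Foxl2 lies between 5.98 and 6.61 in all arrays shown.

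Gng13, Egfl6 and Lrrn1 rose in XX supporting cells by E12.5. In XX supporting cells Egfl6 read 10.12, 10.41 and 10.23 at E12.5, against 6.76, 6.13 and 6.5 at E11.5, a rise of 3.79 (95% CI 3.30 to 4.28), or 13.8-fold, with a limma adjusted p of 1.3e-17. Lrrn1 rose by 2.86 (2.35 to 3.37, adjusted p = 9.8e-13), with arrays of 10.92, 10.92 and 11.02 at E12.5, against 8.17, 8.0 and 8.11 at E11.5. Gng13 rose by 2.38 (1.79 to 2.97, adjusted p = 2.3e-08), with a mean of 10.2 ± 0.24 at E12.5 and 7.82 ± 0.15 at E11.5 (SD, n = 3 each). The arrays of these 2 stages did not overlap for any of the 3 genes. These were the 3 of 6 members called higher in XX supporting cells at E12.5 relative to E11.5, where 3.99% of all clusters tested were called higher (6.59% in either direction). XX arrays of E12.5 were in view when the members were chosen, so a count above that share is no independent support. The Runx1 and Bhlhe41 differences were -0.18 and 0 (adjusted p = 0.67 and 1).

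The 3 genes also rose in XX stromal cells over this interval. Egfl6 rose there by 2.33 (95% CI 1.83 to 2.82, adjusted p = 2e-09), Lrrn1 by 1.65 (1.14 to 2.16, adjusted p = 1.5e-05), Gng13 by 1.54 (0.95 to 2.13, adjusted p = 0.00074) and Runx1 by 0.63 (0.30 to 0.97, adjusted p = 0.029). That made 4 of 6 members, against 1.03% of all clusters called higher (2.03% in either direction). This count too shares arrays with the values behind the choice of members. The Runx1 call was lost in the absence of any of 4 of the 6 arrays compared: XX stromal replicate 2 or 3 at E11.5 (adjusted p = 0.08 and 0.22) or replicate 1 or 2 at E12.5 (0.31 and 0.082). Bhlhe41 differed by 1.15 (0.44 to 1.87, adjusted p = 0.08), with overlapping arrays of 9.88, 9.49 and 7.97 at E12.5, against 8.5, 8.3 and 7.07 at E11.5. It was called without replicate 1 at E11.5 (1.43, adjusted p = 0.039) or without replicate 3 at E12.5 (1.73, adjusted p = 0.0021), and also with the replicate block (adjusted p = 0.022), with array weights (0.014) and in the fit of all 90 arrays (0.045). The study estimated a variable contamination with supporting cells in the XY interstitial sort at E13.5, and gives no estimate for XX stromal cells. The part of such cells in the stromal rises was not tested.

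The change from E11.5 to E12.5 was larger in XX supporting than in XX stromal cells for Egfl6, by 1.46 on the log2 scale (adjusted p = 0.012). It was the 1 of 6 members called in this comparison of changes, against 1.03% of clusters called higher (1.78% in either direction), and the call was lost without XX supporting replicate 2 at E11.5 (1.29, adjusted p = 0.052) or XX stromal replicate 3 at E12.5 (1.18, adjusted p = 0.08). For Runx1 the difference of the changes was -0.81 (95% CI -1.29 to -0.34, adjusted p = 0.063), and of the arrays left out in turn it passed without XX stromal replicate 1 at E11.5 (-0.89, adjusted p = 0.05, just under the limit) or replicate 3 at E12.5 (-0.96, adjusted p = 0.025). Leaving out XX stromal replicate 1 at E12.5 added Lrrn1 (1.43, adjusted p = 0.032), and leaving out replicate 3 at E12.5 added Bhlhe41 (-1.73, adjusted p = 0.049). No member was called in the same comparison for the later pair of stages (0 of 6 by limma, none at an unadjusted p under 0.05, 0.0832% of clusters called).

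In XY cells none of these 3 genes was called between E11.5 and E12.5. In XY supporting cells Egfl6 read 5.7, 5.47 and 5.63 at E12.5, against 5.9, 5.56 and 6.09 at E11.5, and the differences between these stages for Gng13, Egfl6 and Lrrn1 were -0.30, -0.25 and -0.18 (adjusted p = 0.53, 0.51 and 0.68). In XY interstitial cells they were -0.07, -0.30 and -0.59 (adjusted p = 0.98, 0.73 and 0.28). Runx1 was the only member called between E11.5 and E12.5 in either XY population, 1 of 6 in each, against 9.22% of clusters called lower in supporting cells (21.8% in either direction) and 1.65% in interstitial cells (3.62%). At E12.5 the XX minus XY difference in supporting cells was 4.65 for Egfl6, 3.44 for Lrrn1 and 3.16 for Gng13, and in stromal against interstitial cells it was 3.08, 2.57 and 2.32 (not tested).

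From E12.5 to E13.5 no member passed limma's test in XX supporting, XX stromal, XY supporting or XY interstitial cells (0 of 6 in each), where 1.5%, 0.398%, 1.63% and 1.3% of clusters were called. At an unadjusted p under 0.05 there were 1, 2, 2 and 1 members. The largest of these differences in XX and in XY cells were Gng13 in XX stromal cells (0.89, 95% CI 0.29 to 1.48, adjusted p = 0.23) and Bhlhe41 in XY interstitial cells (-1.15, -1.86 to -0.44, adjusted p = 0.11). Gng13 was called without XX stromal replicate 3 at E13.5 (1.38, adjusted p = 0.02), and Bhlhe41 without XY interstitial replicate 1 at E13.5 (-1.47, adjusted p = 0.029).

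Supporting cells were compared with stromal or interstitial cells within each sex and stage. Runx1 and Bhlhe41 were higher in supporting cells in all 6 comparisons. In XX gonads Runx1 was higher by 1.68 at E11.5 (95% CI 1.34 to 2.02), with means of 9.69 ± 0.12 in supporting and 8.01 ± 0.16 in stromal cells (SD, n = 3 each), by 0.87 at E12.5 and by 1.06 at E13.5 (adjusted p = 8.9e-12, 0.00011 and 3.4e-06). In XY gonads it was higher by 1.37 at E11.5, 0.82 at E12.5 and 0.53 at E13.5 (adjusted p = 4.6e-09, 0.00014 and 0.013), although its level fell in both XY populations. The arrays of supporting cells lay above those of stromal or interstitial cells in each of these comparisons.

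Bhlhe41 was higher in XX supporting than in XX stromal cells by 2.53 at E11.5, 1.38 at E12.5 and 1.09 at E13.5 (adjusted p = 8.3e-08, 0.0036 and 0.03). In XY gonads the difference was 1.51, 1.88 and 2.21 at the 3 stages (adjusted p = 0.00099, 3.4e-05 and 1.2e-06). At E13.5 Bhlhe41 read 8.22, 8.23 and 8.28 in XY supporting cells, against 6.66, 5.59 and 5.84 in XY interstitial cells. Whether the XX and XY differences differ was not tested.

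Egfl6, Lrrn1 and Gng13 were not called between XX supporting and XX stromal cells at E11.5, and Egfl6 and Lrrn1 were higher in supporting cells at E12.5. At E11.5 the differences were -0.46, -0.49 and -0.04 (adjusted p = 0.16, 0.15 and 0.93). At E12.5 Egfl6 read 10.12, 10.41 and 10.23 in XX supporting cells, against 9.57, 9.49 and 8.69 in XX stromal cells, a difference of 1.00 (0.51 to 1.5, adjusted p = 0.0022). Lrrn1 read 10.92, 10.92 and 11.02 in XX supporting cells, against 10.67, 10.27 and 9.76 in XX stromal cells, a difference of 0.72 (0.21 to 1.23, adjusted p = 0.041). The Gng13 difference was 0.80 (0.20 to 1.39) and missed the threshold (adjusted p = 0.054), although the arrays did not overlap. With the replicate number as a block it passed (adjusted p = 0.049), as it did with a filter at log2 7, with quantile normalization and with other sets of arrays in the fit (adjusted p = 0.033 to 0.049).

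At E13.5 Egfl6 remained higher in XX supporting cells, by 0.86 (0.36 to 1.35, adjusted p = 0.012), while Lrrn1 differed by 0.36 (-0.15 to 0.87, adjusted p = 0.41) and Gng13 by 0.41 (-0.19 to 1.00, adjusted p = 0.43). In XX stromal cells Gng13 spread most, with arrays of 10.53, 11.04 and 9.31. In XY gonads none of the 3 genes was called at any stage, and the supporting minus interstitial difference of Egfl6 was -0.61, -0.57 and -0.52 in order of stage (adjusted p = 0.055, 0.086 and 0.11). It passed with array weights at each of the 3 stages (adjusted p = 0.012, 0.035 and 0.018). The Egfl6 means in XY supporting cells, 5.85, 5.60 and 5.74 in order of stage, were under the filter limit of log2 6.

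Counted over the members, 2 of 6 were higher in XX supporting than in XX stromal cells at E11.5, where 13.4% of all clusters tested were called higher (27.6% in either direction), 4 of 6 at E12.5 (8.56%, 17.5% in either direction) and 4 of 6 at E13.5 (7.31%, 13.2% in either direction), where 1 of the 4 is Foxl2, whose cluster stayed low in all arrays. In XY gonads 2 of 6 were higher at each stage, where 13.8%, 14.2% and 15.5% of clusters were (27.1%, 24.7% and 27.9% in either direction). No member was called lower. The median difference of the members at E12.5 was 0.84 in XX and 0.04 in XY gonads, beside 0.06 and 0.03 over all clusters.

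**Figure D2:**
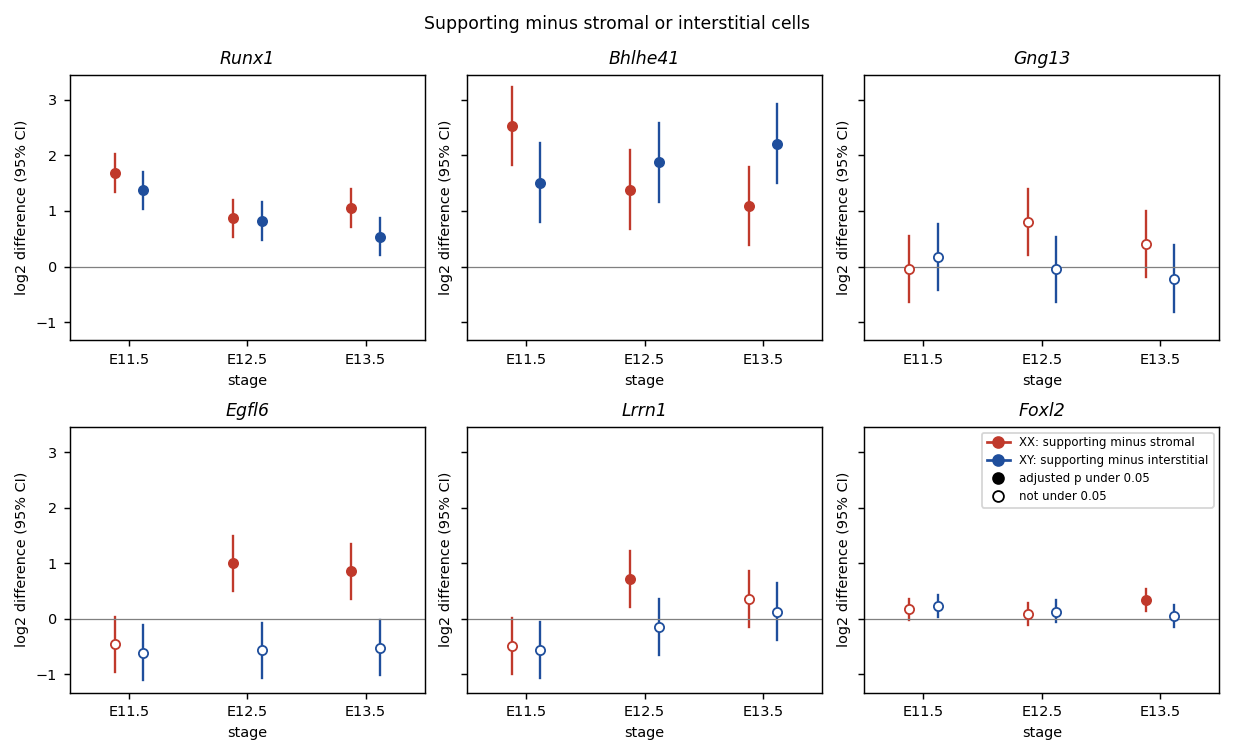
Log2 difference of supporting minus stromal cells in XX gonads (red) and supporting minus interstitial cells in XY gonads (blue) at each stage, with 95% confidence intervals from limma (n = 3 arrays a group), filled where the adjusted p is under 0.05. Runx1 and Bhlhe41 are above 0 in all 6 comparisons. Egfl6 is above 0 in XX gonads from E12.5 and below 0 in XY gonads, where it is low in both populations and not called at any stage.

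Several of these calls rested on XX stromal replicate 3. Without that array at E12.5, Egfl6 (0.72, adjusted p = 0.062), Bhlhe41 (0.81, adjusted p = 0.14) and Lrrn1 (0.49, adjusted p = 0.27) were no longer called and 1 of 6 members was left, against 4 with it. Gng13 was called without XX stromal replicate 1 (1.03, adjusted p = 0.024) or XX supporting replicate 3 (0.93, adjusted p = 0.048) at E12.5. At E12.5 the mean level of 24 other ovarian somatic genes was 8.20 in XX stromal replicate 3, against 8.58 and 8.55 in replicates 1 and 2, and that of the interstitial and mesenchymal genes was 8.45, against 8.14 and 8.26. The part of this array's make-up in the differences was not tested. Lrrn1 also lost its call in the absence of any of 4 other arrays (0.69 to 0.74, adjusted p = 0.074 to 0.096), XX stromal replicate 2 and XX supporting replicates 1, 2 and 3, and with no filter on low values (adjusted p = 0.05, just over the limit).

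At E13.5 the Bhlhe41 call was lost in the absence of any of 5 of the 6 arrays, all but XX stromal replicate 2 (0.77 to 1.16, adjusted p = 0.054 to 0.24). The Egfl6 call was lost without XX stromal replicate 1 (0.72, adjusted p = 0.094) or XX supporting replicate 3 (0.80, adjusted p = 0.054). Without XX stromal replicate 1 or 3 or XX supporting replicate 1 or 3, 2 of 6 members were called. In XY gonads the Runx1 call at E13.5 was lost without XY interstitial replicate 1 (0.49, adjusted p = 0.051), and at E11.5 Egfl6 was called lower in supporting cells without XY interstitial replicate 3 (-0.91, adjusted p = 0.01) or XY supporting replicate 3 (-0.74, adjusted p = 0.042). Without that last array Lrrn1 was called lower too (-0.81, adjusted p = 0.026). At E13.5 Egfl6 was called lower in supporting cells without XY interstitial replicate 2 (-0.74, adjusted p = 0.037).

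Foxl2, a forkhead gene used as a marker of granulosa cells, had a cluster that lay between 5.98 and 6.61 in all 90 arrays of sorted cells. These levels are within or below the range of the array medians, and neither that the cluster was above background nor that its probes report Foxl2 RNA was checked, so its values are those of the cluster and are no measure of whether the gene was expressed. The cluster's 24 lineage group means spanned 0.42 on the log2 scale, and 13.5% of genes had a smaller span. For the other members the spans were 3.32 (Runx1) to 5.79 (Lrrn1), each larger than that of at least 94.8% of genes. In XX supporting cells Foxl2 read 6.34, 6.4 and 6.13 at E11.5, 6.28, 6.29 and 6.21 at E12.5 and 6.61, 6.45 and 6.37 at E13.5. XY supporting cells read 6.49, 6.16 and 6.23, then 6.36, 6.25 and 6.27, then 6.45, 6.45 and 6.19. The XX and XY supporting arrays overlapped at every stage, with differences between -0.03 and 0.11.

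The 1 call for the Foxl2 cluster was supporting against stromal cells in XX gonads at E13.5, with means of 6.48 ± 0.13 in supporting and 6.14 ± 0.14 in stromal cells (SD, n = 3 each), a difference of 0.34 (95% CI 0.14 to 0.53, adjusted p = 0.011). It was lost without XX stromal replicate 3 (0.26, adjusted p = 0.13) or XX supporting replicate 1 (0.27, adjusted p = 0.11). In XY gonads at E11.5 the difference of 0.23 (adjusted p = 0.062) passed without XY supporting replicate 2 (0.30, adjusted p = 0.03) and in the fit of all 90 arrays (adjusted p = 0.047).

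The neighbouring noncoding gene Foxl2os, which is no member and was looked at after its values had been seen, had its own cluster and a marked XX pattern. In XX supporting cells it read 8.95, 8.81 and 8.91 at E11.5, 10.42, 10.17 and 9.97 at E12.5 and 11.06, 10.82 and 10.97 at E13.5. In XY supporting cells it lay between 7.57 and 7.95 in all 9 arrays. Foxl2os was higher in XX supporting than in XX stromal cells by 1.18, 1.18 and 1.66 at the 3 stages (adjusted p = 8.9e-08, 1.9e-07 and 1.5e-11), and rose in XX supporting cells by 1.3 over the earlier pair of stages (adjusted p = 4.7e-08) and by 0.76 over the later (adjusted p = 0.0053). It rose by 1.3 in XX stromal cells over the earlier pair (adjusted p = 2.7e-07), and in αSma-EYFP cells it was higher in XX than in XY by 1.35 at E12.5 and 1.51 at E13.5 (adjusted p = 6e-09 and 1.3e-10). Across the 24 lineage group means the correlation was 0.39 with Foxl2 and 0.88 with Egfl6, a description over groups that share arrays, crosses and normalization.

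**Figure D3:**
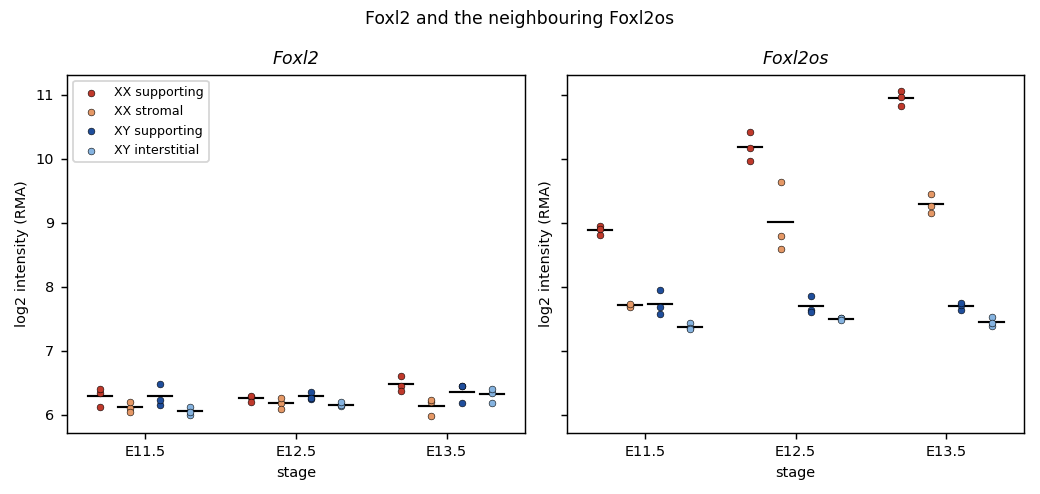
Log2 RMA intensity of Foxl2 (left) and the neighbouring Foxl2os (right) in every array of XX supporting, XX stromal, XY supporting and XY interstitial cells by stage, with bars for group means (n = 3). Foxl2 stays within 5.98 to 6.61, while Foxl2os reaches 10.82 to 11.06 in XX supporting cells at E13.5.

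The αSma-EYFP cells give XX and XY values from another reporter, left out of the XX minus XY description. The members were chosen as XX somatic markers with values of these arrays in view, and this sort holds somatic cells. The XX minus XY tests here are therefore no independent support for that choice. The study describes this reporter as labelling a mixed population, supporting cells included, at least early on. At E11.5 no member was called between XX and XY αSma-EYFP cells by limma (0 of 6, 1 at an unadjusted p under 0.05, 0.249% of clusters called), and Runx1 averaged 8.83 ± 0.21 in XX and 8.34 ± 0.15 in XY cells (SD, n = 3 each, adjusted p = 0.47). At E12.5 and E13.5 the 5 members other than Foxl2 were higher in XX cells (5 of 6 at each stage), where 2.62% and 3.24% of clusters were called higher (5.15% and 5.73% in either direction). No array of XX cells overlapped one of XY cells for any of the 5 at these stages.

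Bhlhe41 at E13.5 showed the largest of these differences. It read 9.61, 9.66 and 9.4 in XX αSma-EYFP cells at E13.5, against 6.03, 5.98 and 6.17 in XY cells, a difference of 3.50 (95% CI 2.83 to 4.17), or 11.3-fold (adjusted p = 5.2e-13). At E12.5 its difference was 1.78 (1.11 to 2.44, adjusted p = 8.7e-05). Runx1 differed by 1.78 at E12.5 and 2.28 at E13.5 (adjusted p = 5.2e-13 and 1e-17), with arrays of 9.0, 8.74 and 8.63 in XX cells at E13.5, against 6.43, 6.51 and 6.58 in XY cells. Runx1 averaged 8.34, 6.9 and 6.5 in XY αSma-EYFP cells in order of stage, and Bhlhe41 8.51, 7.55 and 6.06, while their XX means lay between 8.68 and 9.56. Change with stage was not tested in these cells.

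For Lrrn1, Egfl6 and Gng13 the XX means lay further apart between E11.5 and E12.5 (8.53 and 10.33, 6.32 and 8.48, 7.36 and 8.87) than the XY means (8.43 and 8.14, 6.21 and 6.39, 7.17 and 7.38), again with no test. Lrrn1 read 10.34, 10.3 and 10.35 in XX αSma-EYFP cells at E12.5, against 8.21, 7.88 and 8.33 in XY cells, a difference of 2.19 (1.72 to 2.67, adjusted p = 7.5e-11), and 2.42 at E13.5 (adjusted p = 1.6e-12). Egfl6 differed by 2.10 at E12.5 and 2.08 at E13.5 (adjusted p = 6.3e-10 and 5.7e-10). Gng13 differed by 1.48 and 2.26 (adjusted p = 7.4e-05 and 2.3e-09), and read 9.52, 9.56 and 9.51 in XX cells at E13.5, against 7.54, 7.09 and 7.15 in XY cells. The cell type lists also differed between XX and XY arrays. At E13.5 the mean of the other ovarian somatic genes was 8.41 to 8.44 in XX and 7.29 to 7.36 in XY arrays. That of the Sertoli cell genes was 7.29 to 7.34 in XX and 7.76 to 8.01 in XY arrays. That of the interstitial and mesenchymal genes was 8.47 to 8.57 in XX and 9.10 to 9.40 in XY arrays. That of the fetal Leydig cell genes was 6.34 to 6.43 in XX and 7.81 to 8.07 in XY arrays. At E13.5 none of these 3 lists held a gene called higher in XX cells, and 8 of 18 Sertoli cell, 6 of 16 interstitial and mesenchymal and 6 of 8 fetal Leydig cell genes were lower (median -0.47, -0.60 and -1.25, beside -0.01 over all clusters). At E12.5 16 of 18 Sertoli cell genes were lower in XX cells and 0 higher (median -1.12). The part of cell make-up in the differences was not tested. The ovarian and Sertoli cell lists are of genes that differ by sex, so they cannot tell cell make-up from level per cell.

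**Figure D4:**
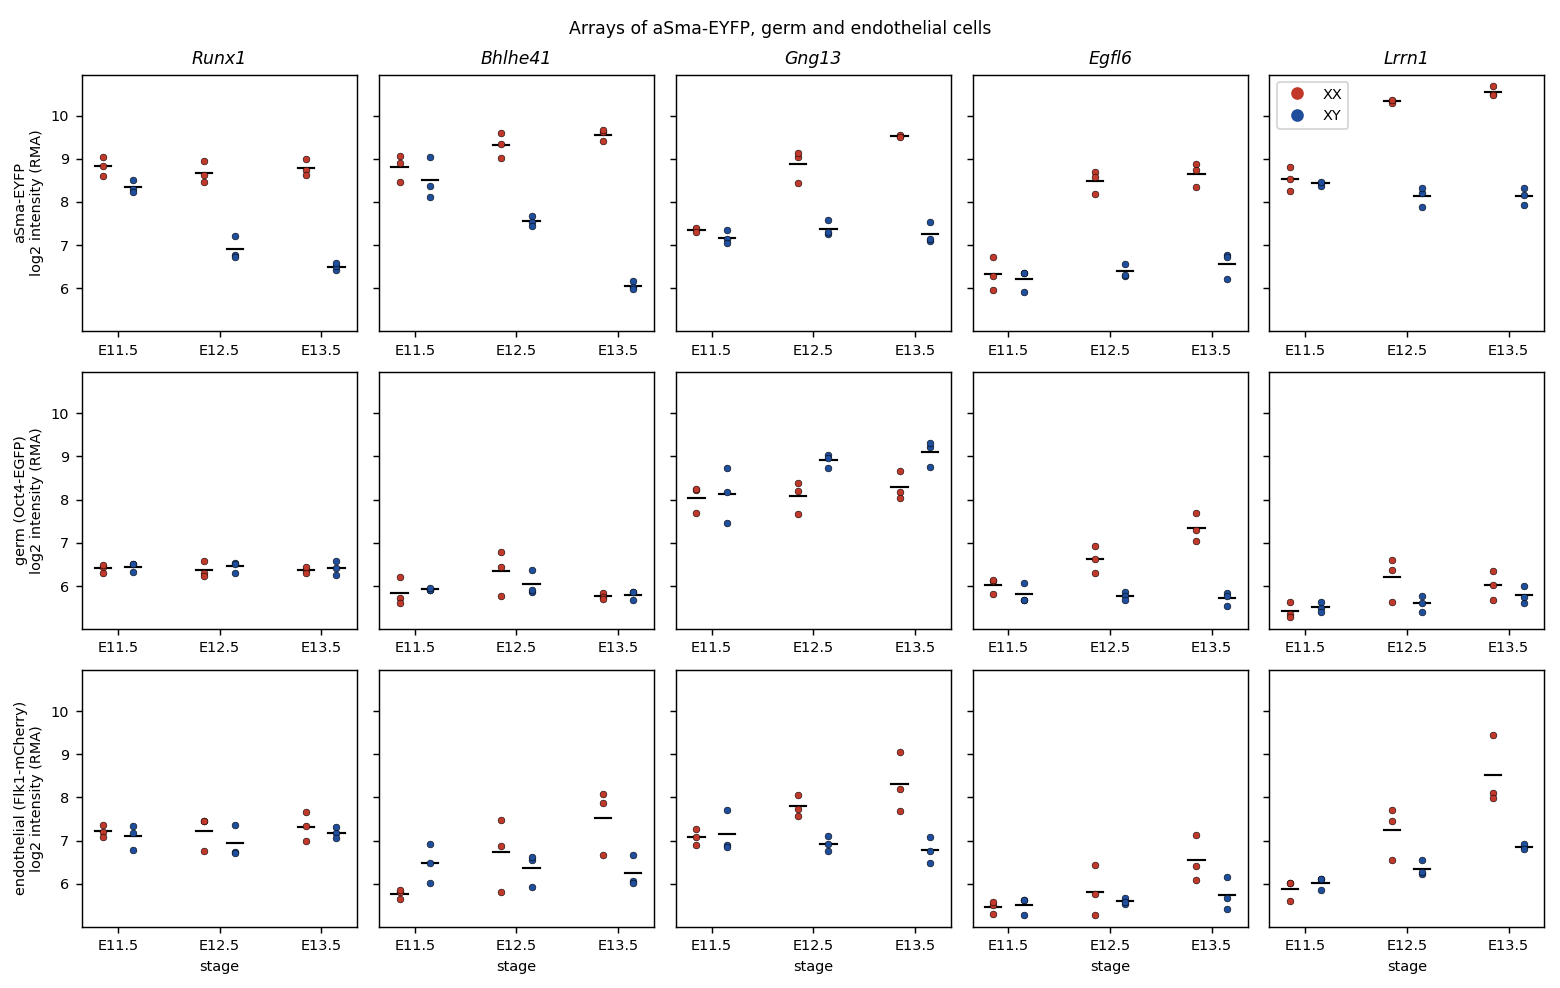
Log2 RMA intensity of 5 members in every array of αSma-EYFP (top), germ (middle) and endothelial (bottom) cells, XX in red and XY in blue, by stage, with bars for group means (n = 3). In αSma-EYFP cells all 5 separate by sex from E12.5, with Bhlhe41 at 9.40 to 9.66 in XX and 5.98 to 6.17 in XY arrays at E13.5.

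In germ cells Runx1, Bhlhe41 and Lrrn1 were in the lower part of their range in both sexes, and no member was called at E11.5 (0 of 6, none at an unadjusted p under 0.05, 0.202% of clusters called). Egfl6 was higher in XX germ cells at E12.5 by 0.85 (0.36 to 1.35, adjusted p = 0.029), the 1 of 6 members called there, against 2.77% of clusters called higher (4.48% in either direction). At E13.5 it read 7.05, 7.69 and 7.29 in XX germ cells, against 5.85, 5.77 and 5.53 in XY germ cells, a difference of 1.63 (1.13 to 2.12, adjusted p = 6.6e-07). The E12.5 call was lost in the absence of any of 5 of the 6 arrays, all but XX replicate 1 (0.70 to 0.90, adjusted p = 0.063 to 0.23), and without XX replicate 1 Lrrn1 was called as well (0.89, adjusted p = 0.049). The mean of the other ovarian somatic genes was 6.98 to 7.16 in XX and 6.91 to 7.0 in XY germ cells at E13.5, and that of the mesonephric and epithelial genes 6.99 to 7.06 in XX and 7.23 to 7.41 in XY germ cells. Their part in the Egfl6 difference was not tested.

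Gng13 ran the other way. At E13.5 it read 8.18, 8.66 and 8.04 in XX germ cells, against 9.22, 9.32 and 8.76 in XY germ cells, a difference of -0.81 (-1.40 to -0.21, limma adjusted p = 0.043), which made 2 of 6 members called at E13.5, against 21.1% of clusters. The call was lost without XX replicate 1 or 3 or XY replicate 1 or 2 (-0.75 to -0.68, adjusted p = 0.12 to 0.18), and with no filter, quantile normalization or array weights (adjusted p = 0.054, 0.083 and 0.052). At E12.5 the difference was -0.83 (-1.42 to -0.24, adjusted p = 0.11), with arrays that did not overlap. The XY germ cell means of Gng13, 8.91 at E12.5 and 9.10 at E13.5, lay above those of XY supporting cells, 7.04 and 6.94, in a comparison that was not tested.

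In the endothelial sort no member was called between the sexes at E11.5 (0 of 6, none at an unadjusted p under 0.05, 0.981% of clusters called), Lrrn1 was higher in XX cells at E12.5 (1 of 6, 0.69% of clusters called higher and 3.55% in either direction), and at E13.5 Gng13, Egfl6, Bhlhe41 and Lrrn1 were higher in XX cells (4 of 6, 1.49% and 5.31%). The study reports Leydig cells in the XY sort after E11.5, which it credits to leaky expression of the reporter. It could not decide whether sex differences in this sort came from that contamination or from endothelial cells. At E12.5 Lrrn1 read 7.72, 7.45 and 6.54 in XX endothelial cells, against 6.23, 6.55 and 6.28 in XY endothelial cells, with 1 array of XX cells inside the XY range (adjusted p = 0.036). Lrrn1 read 8.11, 7.99 and 9.45 in XX endothelial cells at E13.5, against 6.86, 6.92 and 6.81 in XY endothelial cells, a difference of 1.65 (1.14 to 2.17, adjusted p = 3.5e-06). Gng13 differed by 1.53 (0.94 to 2.13, adjusted p = 0.00024), Bhlhe41 by 1.29 (0.57 to 2.00, adjusted p = 0.018) and Egfl6 by 0.79 (0.30 to 1.28, adjusted p = 0.043, with overlapping arrays). XX replicate 3 was the highest of the XX arrays for all 4 genes. Without it Egfl6 (0.50, adjusted p = 0.39) and Bhlhe41 (1.02, adjusted p = 0.14) were not called and 2 members were left, and the same number was left without XY replicate 3.

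Markers of other cells also differed between these arrays. In XX endothelial replicate 3 at E13.5 the mean of the other ovarian somatic genes was 7.77 and that of the interstitial and mesenchymal genes 7.62, against 7.62 and 7.24 in replicate 1 and 7.45 and 7.03 in replicate 2. Gng13, Bhlhe41 and Lrrn1 also read higher in replicate 1 than in replicate 2, while Egfl6 read lower (6.09 and 6.41). Of the other ovarian somatic genes, 6 of 24 were called higher at E13.5 in the XX endothelial sort (1.49% of all clusters), among them Fst (follistatin), with means of 8.42 in XX and 6.67 in XY cells (adjusted p = 3.5e-08). All 8 measured fetal Leydig cell genes that passed the filter were lower in XX endothelial cells, and 5 of 15 endothelial genes were higher. The part of these cells in the members' differences was not tested. The Egfl6 call was also lost without XX replicate 2 (0.86, adjusted p = 0.072) or XY replicate 1 (0.76, adjusted p = 0.16) or 3 (0.62, adjusted p = 0.22), that of Bhlhe41 without XX replicate 1 (1.12, adjusted p = 0.11) or XY replicate 2 (1.19, adjusted p = 0.092) or 3 (1.17, adjusted p = 0.073), and that of Lrrn1 at E12.5 in the absence of any of 5 of the 6 arrays (all but XX replicate 3, adjusted p = 0.053 to 0.2). At E13.5 Egfl6 was also lost with no filter (adjusted p = 0.055), with quantile normalization (0.053) and in a fit of the endothelial arrays only (0.19), and Bhlhe41 with array weights (0.052) and in that fit (0.11).

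Set in order over all 30 groups, the XX supporting groups of E12.5 and E13.5 were among the highest 3 for each of Runx1, Gng13, Egfl6, Bhlhe41 and Lrrn1, as the choice of these genes would have it. Runx1 was next highest in XY supporting cells at E11.5 (9.18), which overlapped the XX supporting groups of E12.5 and E13.5 but not that of E11.5, and so was Bhlhe41 (9.74), without overlap with any XX supporting group. For Gng13 the second group was XX stromal at E13.5 (10.29), which overlapped its neighbours on both sides. For Egfl6 the 2 stromal groups of E12.5 and E13.5 followed without overlap with the supporting groups (9.37 and 9.25). For Lrrn1 the XX supporting group of E13.5 (11.21) stood alone above that of E12.5 (10.95), which overlapped XX stromal cells of E13.5 (10.85).

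The genes with the most similar course, by Pearson correlation over 24 lineage group means among 15318 genes, were Lgals7 (0.983), Mettl24 (0.962) and Dsc2 (0.956) for Bhlhe41, Scyl2 (0.953), Laptm4b (0.949) and Ptpn4 (0.946) for Runx1, and Cntn4 (0.965), Rbfox1 (0.939) and Npr2 (0.923) for Lrrn1. For Egfl6 they were Cacna1d (0.938), Ano1 (0.925) and Wnt2b (0.922), and for Gng13 Amph (0.891), Necab3 (0.846) and Kcng3 (0.826). For Foxl2, with its small span, they were Hyal3 (0.822), Cited4 (0.798) and Bmp8a (0.781). Among the members Runx1 and Bhlhe41 were most alike (0.94), followed by Egfl6 and Lrrn1 (0.85) and Gng13 and Egfl6 (0.84). These values describe groups that share lineages and crosses.

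Of 24 other ovarian somatic genes, 18 were higher and 2 lower in XX supporting than in XX stromal cells at E11.5 (median log2 difference 1.18, beside 0.05 over all clusters), 17 and 2 at E12.5 (median 0.63) and 10 and 1 at E13.5 (median 0.46). Of all clusters tested, 13.4%, 8.56% and 7.31% were called higher at these stages. At E12.5 the strongest were Slc7a11, a cystine transporter (means 7.89 in supporting and 5.92 in stromal cells, adjusted p = 1.1e-16), Rasgrp1, a Ras activator (7.65 and 6.37, adjusted p = 3.9e-11), Fst, an activin inhibitor (11.94 and 10.59, adjusted p = 5.2e-06), and Rspo1, an activator of WNT signalling (10.16 and 9.14, adjusted p = 5.5e-06). In XY supporting cells 12 of the 24 fell between E11.5 and E12.5 and 0 rose, where 9.22% of all clusters fell, among them Dock4, a Rac activator (6.94 at E12.5 and 10.81 at E11.5, adjusted p = 1.9e-26), and Fst (6.69 and 8.04, adjusted p = 4.4e-06). In αSma-EYFP cells 16 were higher and 1 lower in XX than in XY cells at E12.5, and 18 and 0 at E13.5, where 2.62% and 3.24% of all clusters were higher. The list was drawn up with results of these arrays known. From them the study shows Rasgrp1 as an example of a female-primed pattern. Dock4 is shown as a gene that already differed by sex at E11.5 in these arrays, with some indication of earlier priming. By the study's rules both patterns include a fall in XY supporting cells by E12.5. Nothing is therefore read from the excess of these counts over all clusters.

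Among 9 measured genes of core-binding factors and corepressors, Runx1t1, a corepressor of the ETO family, was lower in XX supporting than in XX stromal cells at all 3 stages (by -1.39, -0.85 and -0.66, adjusted p = 3.3e-08, 0.00068 and 0.011). Cbfb, the partner of RUNX1, averaged 10.86 in XX supporting and 10.48 in XX stromal cells at E11.5 (adjusted p = 0.019), and in XX supporting cells it fell by 0.70 from E11.5 to E12.5 (adjusted p = 8.1e-05), an interval over which Runx1 itself was not called. Runx3, the related factor, differed by 0.32 between XX supporting and stromal cells at E12.5 (6.62 and 6.30, adjusted p = 0.017). These levels are within or below the range of the array medians, and whether the cluster was above background was not checked. Of the 9 genes, 2, 2 and 1 were higher and 2, 1 and 1 lower in XX supporting cells at the 3 stages. Of all clusters, 13.4%, 8.56% and 7.31% were called higher there (27.6%, 17.5% and 13.2% in either direction).

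Of 12 measured clock genes, 1 was higher at each stage and 2, 2 and 1 lower in XX supporting than in XX stromal cells, where 27.6%, 17.5% and 13.2% of all clusters were called in either direction. Cry1, a repressor of the clock, had means of 8.06 in XX supporting and 9.41 in XX stromal cells at E12.5 (adjusted p = 3e-09), and Bhlhe40, the close relative of Bhlhe41, was lower in XX supporting cells at E12.5 (6.21 and 6.70, adjusted p = 0.019), opposite in sign to Bhlhe41. The Bhlhe40 levels too are within or below the range of the array medians, with no check against background. Of 15 other G protein beta and gamma subunit genes, 1 was higher and 4 lower in XX supporting than in XX stromal cells at E12.5, with Gng11 (6.21 and 7.67, adjusted p = 3.5e-07) and Gng8 (5.78 and 6.98, adjusted p = 5.8e-07) among those lower, and 1, Gnb4, rose in XX supporting cells from E11.5 to E12.5 (by 0.54, adjusted p = 0.03). Of all clusters, 17.5% were called in the first of these comparisons, and 3.99% rose in the second. Gnb4 was lower in XX than in XY germ cells at E13.5, as Gng13 was (7.47 and 8.57, adjusted p = 5e-07).

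A further list of 12 genes held relatives of Egfl6 and Lrrn1 and the integrin subunits Itga8 and Itgb1. Of these, Npnt, which encodes the EGF-repeat matrix protein nephronectin, rose in XX supporting cells from E11.5 to E12.5 by 0.85 (adjusted p = 0.00034) and was higher there than in XX stromal cells at E12.5 (8.22 and 7.66, adjusted p = 0.017) and at E13.5 (8.71 and 7.56, adjusted p = 6.3e-07). It was also higher in XX than in XY germ cells at E13.5, as Egfl6 was (8.95 and 7.43, adjusted p = 3.5e-10). Itga8, the integrin subunit that binds nephronectin, ran opposite, with means of 5.70 in XX supporting and 10.13 in XX stromal cells at E12.5 (adjusted p = 1.8e-17). Lrrn3, a relative of Lrrn1, fell in XX supporting cells over the interval in which Lrrn1 rose (by 0.99, adjusted p = 0.00041). In all, 1 of the 12 was higher and 2 lower, Itga8 among them, in XX supporting than in XX stromal cells at E12.5, and 2 rose and 2 fell in XX supporting cells from E11.5 to E12.5. Of all clusters, 17.5% were called in the first comparison (8.56% higher) and 6.59% in the second (3.99% higher).

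Markers of other cells were counted in the same comparison. Of the genes tested at E12.5 in XX supporting against XX stromal cells, 0 of 16 interstitial and mesenchymal genes were higher and 9 lower, 1 of 18 Sertoli cell genes higher and 3 lower, 0 of 15 endothelial genes higher and 2 lower, 3 of 13 germ cell genes higher and 0 lower, 0 of 14 macrophage and leukocyte genes higher and 1 lower, and 4 of 11 mesonephric and epithelial genes higher, where 8.56% of all clusters were higher and 17.5% were called in either direction. None of 8 fetal Leydig cell genes and none of 7 red blood cell genes was called by limma. The part of any of these cells in the members' differences was not tested.

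Over the sexes, with no test, 4 of 6 members had all XX arrays above all XY arrays in supporting cells at E11.5 and 5 of 6 at E12.5 and at E13.5, where 10.2%, 20.7% and 24.8% of clusters did. In stromal against interstitial cells these counts were 2, 5 and 5 of 6, beside 4.51%, 8.58% and 12.1%. Nothing is read from these counts, since the genes were chosen on them.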

How the data were processed

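RNA from FACS-sorted cells was hybridised by the authors to Affymetrix Mouse Gene 1.0 ST arrays. The authors deposited log2 intensities, made with RMA (GC and probe sequence adjustment, quantile normalization, median polish per transcript cluster) in Partek Genomics Suite. The methods describe one processing of all 91 arrays, for the αSma-EYFP cells, and another of 72 arrays; which of them gave the deposited values is not given in the sources used here. The file holds 35557 clusters on 91 arrays, and 1 array of a whole newborn mouse was not used. The reporter of the stromal and interstitial cells is not reported here. Array number, 3 a group, limits the precision.

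Clusters were named from the platform annotation, 21789 to 1 gene only. Of these, a cluster was tested where 2 or more arrays of any one group exceeded log2 6, 16820 in a fit of 72 arrays with 1 mean per group, and 16859 in a fit of 90 arrays for αSma-EYFP cells. limma 3.58.1 in R 4.3.3 gave two-sided p-values, Benjamini-Hochberg adjusted over all clusters tested, and a call is an adjusted p under 0.05. There were 25 tested comparisons. Tests between groups of XX arrays share those arrays with the values the members were chosen on. The fit was tested on simulated data.

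The members, the gene lists and the tests were chosen with earlier results of these data known. Named genes were the 6 members, the 3 genes closest to each by correlation of group means, and up to 4 genes a list with the lowest adjusted p in a comparison, or a list's gene needed as a marker, and Foxl2os was added after its values were seen. Lists were of other ovarian somatic, Sertoli cell, interstitial and mesenchymal, fetal Leydig cell, endothelial, germ cell, macrophage and leukocyte, red blood cell, mesonephric and epithelial, core-binding factor and corepressor, clock, and G protein subunit genes, and relatives of Egfl6 and Lrrn1 with integrin subunits.

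Deviations from group means of same-numbered samples correlated between -0.31 and 0.36 over 75 pairs. Not all of these are distinct, since the comparisons of XX changes repeat the XX supporting pairs of the stage comparisons. In 1 of 25 comparisons, XX against XY germ cells at E12.5, all 3 pairs were over 0.1 (0.13, 0.14 and 0.21), so by that rule the numbers pair the samples there and nowhere else, and the replicate block changed no call in that comparison. Alternatives were other filters, quantile normalization, fewer or more arrays in the fit, moderation with trend and robust, array weights, the methods' limits (unadjusted p under 0.05 and fold over 1.5), the block, and each array left out.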

Additional observations from a re-analysis of the deposited data

Results flagged for a closer look

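The rise of Egfl6 from E11.5 to E12.5 was larger in XX supporting than in XX stromal cells, by 1.46 on the log2 scale in a limma test of the difference between the changes (adjusted p = 0.012). Egfl6 rose by 3.79 in XX supporting cells and by 2.33 in XX stromal cells.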

How the results depend on the processing

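Of 2279 single-gene values under alternatives, 2165 stayed on their side of the threshold, 57 lost a call and 57 gained one. No called value reversed, while values near 0 that were not called could change sign. Counts of members called (of 6) that moved by over 1.5 times, or to or from 0, are given with the main count before the alternative, and smaller moves were of 1 member. Under the methods' limits they were 2 and 1 for XY supporting minus interstitial at E13.5, 0 and 2 for XX stromal E13.5 minus E12.5, 0 and 1 for XY supporting and for XY interstitial E13.5 minus E12.5, 1 and 3 for XY interstitial E12.5 minus E11.5 and for germ cells at E12.5, 1 and 2 for endothelial cells at E12.5, and 1 and 4 for the difference of the XX changes at E12.5. With array weights they were 0 and 1 for both XY changes from E12.5 to E13.5 and for αSma-EYFP at E11.5, 1 and 2 for XY interstitial E12.5 minus E11.5, germ and endothelial cells at E12.5 and the difference of the XX changes, and 2 and 1 for germ cells at E13.5, which also fell to 1 with no filter and with quantile normalization. In a fit of the lineages compared only, endothelial cells gave 1 and 0 at E12.5 and 4 and 2 at E13.5, and the difference of the XX changes 1 and 3, as it did with all 90 arrays, where XY supporting minus interstitial at E11.5 gave 2 and 4. Moderation with trend and robust moved no count.

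Leaving out 1 array gave 1 to 5 (main 4) and 2 to 4 (main 4) for XX supporting minus stromal at E12.5 and E13.5, 2 to 4 (2) and 1 to 3 (2) for XY at E11.5 and E13.5, 3 to 5 (4) for XX stromal E12.5 minus E11.5, 0 to 1 (0) for XX stromal and for XY interstitial E13.5 minus E12.5, 0 to 2 (1) and 1 to 2 (2) for germ cells at E12.5 and E13.5, 0 to 1 (1) and 2 to 3 (4) for endothelial cells at E12.5 and E13.5, and 0 to 2 (1) for the difference of the XX changes at E12.5. The 5 calls in αSma-EYFP cells and the 3 in XX supporting cells at E12.5 held without any of the arrays compared.

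With the replicate block, Gng13 in XX supporting minus stromal at E12.5 (adjusted p = 0.049) and Bhlhe41 in XX stromal E12.5 minus E11.5 (1.15, adjusted p = 0.022) were gained, and no other call changed. Another cluster of the same gene could not be tried, since each member has 1. The Foxl2 call in XX cells at E13.5 was lost under the methods' limits, and Foxl2 did not pass a filter at log2 7. Counts over all clusters moved by over 1.5 times in 38 of the comparisons and settings, among them XX minus XY endothelial cells at E11.5 (165 called, 4 in a fit of endothelial arrays only and 471 with the replicate block) and E12.5 (597, and 99 and 2926 with that fit and with array weights) and, under the methods' limits, XX supporting minus stromal at E11.5 (4642 and 2394) and the difference of the XX changes from E12.5 to E13.5 (14 and 430).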
